A study of Mus musculus with 6 samples.

Results

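The subject is the cytosolic ribosomal proteins, the protein part of the ribosomes that work outside the mitochondria, in hearts of newborn mice. They were taken as every row of the deposited gene table that is annotated as protein-coding and whose name starts with Rpl (large subunit) or Rps (small subunit), without the 10 S6 kinase genes named Rps6k and without Rps19bp1. This gave 93 of 56748 genes, 57 Rpl and 36 Rps. RNA was sequenced from whole hearts of mice at postnatal day 1, from 3 control hearts labelled Flox with the genotype FF and from 3 hearts of a cardiac specific knockout of the histone demethylase Kdm5b (cKO). The labels give neither the strain nor the sex of the mice, do not name the Cre driver, and are silent on whether the samples are different animals. The p-values then cover only how much these samples vary, which may be technical. Expression was given as FPKM, a level per gene length and library size, from 15658893 to 20339926 reads per library.

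A ribosome holds a single copy of nearly all of its proteins, and cells make them in matched amounts from genes scattered over the genome. The mRNAs of ribosomal proteins are abundant and short, and most start with a run of pyrimidines, the terminal oligopyrimidine (TOP) tract, through which mTOR signalling sets their translation. The large subunit forms the peptide bonds and carries the exit tunnel of the new chain, and the small subunit reads the mRNA. Striated muscle makes a variant of its own, Rpl3l, which can take the place of Rpl3 near the centre of the large subunit.

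Of the 93 genes, 77 are the standard genes of the ribosome, with a single gene per protein (46 large, 31 small). Another 8 are paralogues (Rpl3l, Rpl7l1, Rpl10l, Rpl22l1, Rpl36al, Rpl39l, Rps27l and Rps27rt), 7 carry names of the pseudogene form, such as Rpl9-ps6, and the last is Rps23rg1. The members lie on 20 chromosomes, 14 of them on chromosome 7 and 4 on X. A total of 85 members passed the filter of a mean of at least 1 FPKM over the 6 libraries, 52 Rpl and 33 Rps. Of the 8 that did not, Rpl10l, Rpl36-ps4, Rplp2-ps1 and Rps18-ps6 had 0 reads in all libraries, and Rps10, Rps23rg1, Rpl36al and Rpl39l were read at low levels.

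The starts of 8 genes are shown because the TOP tract lies there, and because they span the range of differences described below: the genes with large differences first, then those near 0, then the muscle variant. Sequences are from RefSeq on GRCm38.p6, on the strand of the gene, from 50 bases before to 20 bases into the annotated transcript. Capitals mark the longest run of C and T letters, or the first of them where runs tie in length, as in Rps27l and Rpl23.
Rpl7a, chr2:26910757-26910826, plus strand: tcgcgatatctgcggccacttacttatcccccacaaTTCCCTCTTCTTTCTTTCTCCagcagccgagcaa
Rpl35, chr2:39005112-39005181, minus strand: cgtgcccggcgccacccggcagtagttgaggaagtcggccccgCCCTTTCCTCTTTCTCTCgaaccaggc
Rps27l, chr9:66946036-66946105, plus strand: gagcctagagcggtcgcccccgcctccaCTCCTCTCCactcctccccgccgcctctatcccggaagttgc
Rps15, chr10:80292381-80292450, plus strand: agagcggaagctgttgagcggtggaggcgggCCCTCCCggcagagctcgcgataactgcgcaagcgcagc
Rpl22l1, chr3:28805458-28805527, plus strand: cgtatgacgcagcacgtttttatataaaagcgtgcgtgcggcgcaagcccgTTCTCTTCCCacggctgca
Rpl23, chr11:97782420-97782489, minus strand: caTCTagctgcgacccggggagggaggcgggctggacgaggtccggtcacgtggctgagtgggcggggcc
Rpl7l1, chr17:46782637-46782706, minus strand: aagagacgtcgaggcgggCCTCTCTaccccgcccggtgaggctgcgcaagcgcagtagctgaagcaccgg
Rpl3l, chr17:24727776-24727845, plus strand: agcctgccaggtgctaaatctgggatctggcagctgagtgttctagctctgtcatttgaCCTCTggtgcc
The run is 21 bases long in Rpl7a and 18 in Rpl35, where it spans the annotated start, 10 in Rpl22l1 and 9 in Rps27l. It is 7 bases in Rps15 and in Rpl7l1, 5 in Rpl3l and 3 in Rpl23. Relative to the annotated start, the marked run begins at -22 in Rps27l, -19 in Rps15, -32 in Rpl7l1 and -48 in Rpl23. In these genes it ends before that start, and in Rpl22l1 and Rpl3l it begins after it, at 1 and 9. A marked run is thus not always a TOP tract. For Rps27l and Rpl3l, which have 2 annotated starts each, the first listed is shown.

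The promoter table held 66 of the 93 members. A run of at least 8 C or T letters on the gene's strand, within 50 bases of the annotated start, was present in 54 of them (81.8%), 35 of 40 large and 19 of 26 small subunit genes, against 39.3% of all 27025 genes in that table. The letters CCGGAAG, searched on both strands over 250 bases before to 50 after the start, stood in 39.4% of the members and 9.93% of all genes. GGGCGG stood in 60.6% and 38.2%, CACGTG, which MYC can bind, in 9.09% and 8.09%, CCAAT in 31.8% and 41.1%, and TATAAA in 10.6% and 15.7%. A match says only that these letters are present. The 50 tested members with a pyrimidine run had a median log2 difference of -0.30 between the groups and the 11 without it -0.16. For CCGGAAG these medians were -0.29 with and -0.30 without. They were -0.43 and -0.291 for CACGTG (6 tested members with it) and -0.124 and -0.299 for TATAAA (7 with it). For CCAAT they were -0.298 and -0.295, and for GGGCGG -0.299 and -0.275. A gap between medians was thus not particular to the pyrimidine run. All these medians include FF replicate 3, and none of the gaps was tested.

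Heart muscle genes were abundant in every library: the summed level of 9 of 9 markers (Myh6, Tnnt2, Actc1, Tnni3, Ryr2, Ttn, Myl2, Myl7, Pln) was 13453 to 15398 FPKM in FF and 13757 to 15693 in cKO hearts. Replicate 3 of FF stood apart from the other 5 libraries, with a correlation across genes of 0.880 to 0.909 with them, against 0.954 to 0.984 among those. Its thymocyte markers, 12 of 12 found, summed to 321 FPKM against 1.23 to 2.33 in the other libraries, and its red cell markers, 7 of 8 found, summed to 1554 FPKM against 753 to 1096. Results are therefore given with and without it, and the part these transcripts play in them was not tested. Kdm5b itself measured 3.45 ± 0.406 FPKM in FF and 2.86 ± 0.149 in cKO hearts (SD, n = 3 each; adjusted p = 0.447, limma), over the whole gene and all cell types.

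Most ribosomal protein genes had lower values in cKO than in FF hearts, by a similar small amount in both subunits, and with all libraries no single gene of the family passed the test. The members took 1.82%, 1.85% and 1.95% of the reads in FF replicates 1, 2 and 3, and 1.80%, 1.52% and 1.57% in cKO replicates 1, 2 and 3. The groups did not overlap, but cKO replicate 1 lay just under the lowest FF library. The share of mitochondrial reads moved with the groups too, at 18.0% to 19.0% in FF and 12.8% to 15.7% in cKO. Outside these reads the members' share was 2.24%, 2.25% and 2.40% in FF and 2.14%, 1.76% and 1.80% in cKO. These are bulk samples, in which fewer cells of a type and less RNA per cell cannot be told apart.

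Differences are given as the log2(FPKM + 1) of cKO hearts less that of FF hearts, tested with limma with Benjamini-Hochberg adjustment over 12678 genes at a threshold of 0.05. Of the 85 tested members 0 passed in either direction, against 0.166% of all genes (21). That is 0 lower, against 0.0947%, and 0 higher, against 0.071%. In all 80 members (94.1%) had a difference below 0, against 49.3% of all genes. At an unadjusted p under 0.05, 21 members were lower and 0 higher, where 9.55% of all genes were lower and 8.39% higher. The groups did not overlap, with cKO lower, at 30 members (35.3%), against 14.5% of all genes, and with cKO higher at 0 members, against 13.5%. The median difference of the members was -0.29 (quartiles -0.38 and -0.16), against 0.01 (-0.21 and 0.22) for all genes tested. Genes are not independent replicates, so these counts are a description. The median of the members depended on the scaling. With quantile normalization it was -0.17, with 70 members below 0, and the median of all genes was 0.0037. With rescaling outside mitochondrial and haemoglobin genes the members' median was -0.19, with 74 below 0. Under that rescaling the median of all genes moved up as well, to 0.08. A filter at a mean of 5 FPKM left 81 members, 76 of them below 0. With limma's array weights, which weigh each library by its agreement with the others, 41 of the 85 members fell past the threshold. In that fit 2157 of all 12678 genes did so.

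**Figure D1:**
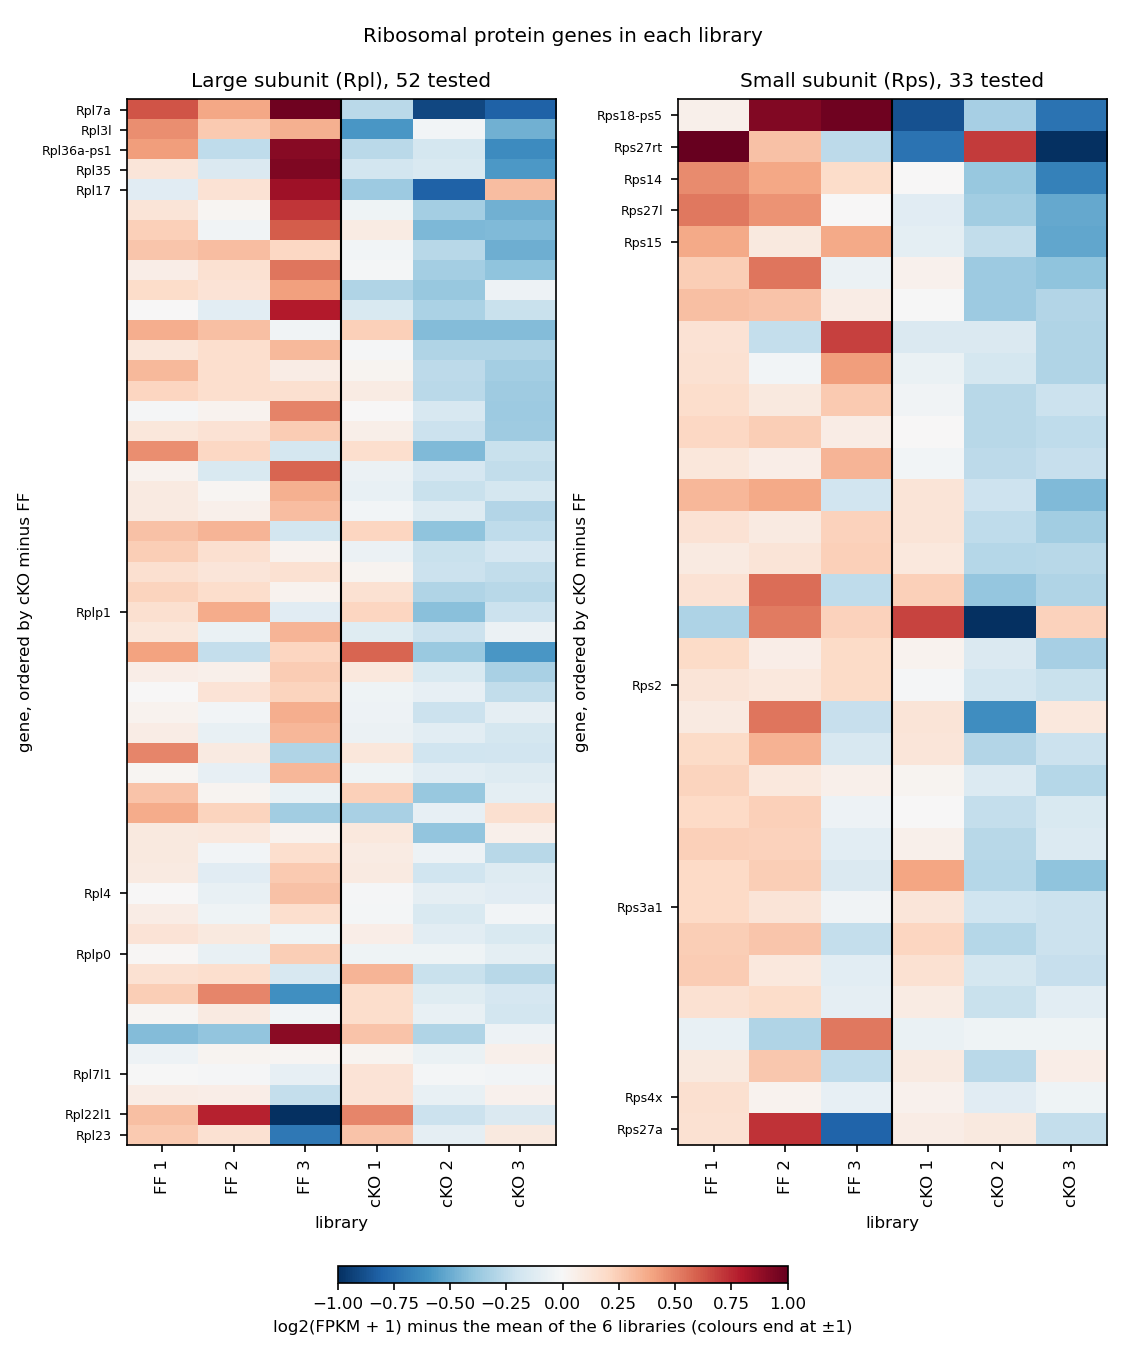
Each row is a tested ribosomal protein gene (52 large subunit on the left, 33 small subunit on the right), each column a library, and the colour is log2(FPKM + 1) minus the mean of the 6 libraries, with rows ordered by the difference of cKO minus FF and only some rows labelled by name. The libraries cKO 2 and cKO 3 are mostly blue, cKO 1 is pale, and FF 3 is darkest red for many large subunit genes.

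The libraries were not alike within a group. Replicate 1 of cKO was the highest cKO library at 72 of the 85 members, and it lay below all FF libraries at 34, whereas cKO replicate 2 did so at 71 and cKO replicate 3 at 65. The lowest of the 6 values belonged to a cKO library at 75 members. Replicate 3 of FF was the highest of the 6 libraries at 36 members and the lowest at 8.

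Without FF replicate 3 the picture of the family was much the same and single genes passed. The median of the 84 members tested was again -0.29, and 80 of them were below 0, against 51.3% of all genes. In limma with Benjamini-Hochberg adjustment 8 members (9.52%) fell, against 7.12% of all 12631 genes, and 0 rose, against 6.47%. The share of members that passed was thus near the background. The 8 were Rpl7a, Rpl34, Rpl3l, Rps14, Rps19, Rps23, Rps27l and Rps18-ps5. The groups did not overlap at 47 members with cKO lower (26.9% of all genes) and at 2, Rpsa and Rpl10-ps3, with cKO higher (25.1% of all genes). Only 2 of the 8 calls, Rpl7a and Rps27l, were made when the genes tested were those that passed the filter with 6 libraries. Without cKO replicate 1 the medians were larger, at -0.36 for the large and -0.42 for the small subunit, and 0 members passed, as did 0 of all genes.

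Both subunits had similar median differences, and their balance depended on FF replicate 3. The median was -0.27 over 52 large subunit genes, 47 of them below 0, and -0.30 over 33 small subunit genes, all 33 below 0. The large minus small difference of 0.03 was smaller than its spread between replicates, a pooled SD of 0.138, to which FF replicate 3 added much. By library, large minus small was -0.07, -0.15 and 0.22 in FF and -0.01, 0.05 and 0.04 in cKO replicates 1, 2 and 3. Without FF replicate 3 the medians were -0.22 and -0.32, and large minus small was 0.105. In that fit 3 of 51 large and 5 of 33 small subunit genes fell past the threshold, against 7.12% of all genes. A count of a single gene per protein gave -0.28 and -0.29. By library, the median of the large subunit genes, as a deviation from the mean of the 6 libraries, was 0.12, 0.09 and 0.22 in FF and 0.03, -0.22 and -0.22 in cKO replicates 1, 2 and 3. That of the small subunit genes was 0.19, 0.24 and 6.2e-04 in FF and 0.04, -0.26 and -0.25 in cKO. Replicate 3 of FF thus held the highest median of all libraries for the large subunit, and for the small subunit a median under that of cKO replicate 1.

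**Figure D2:**
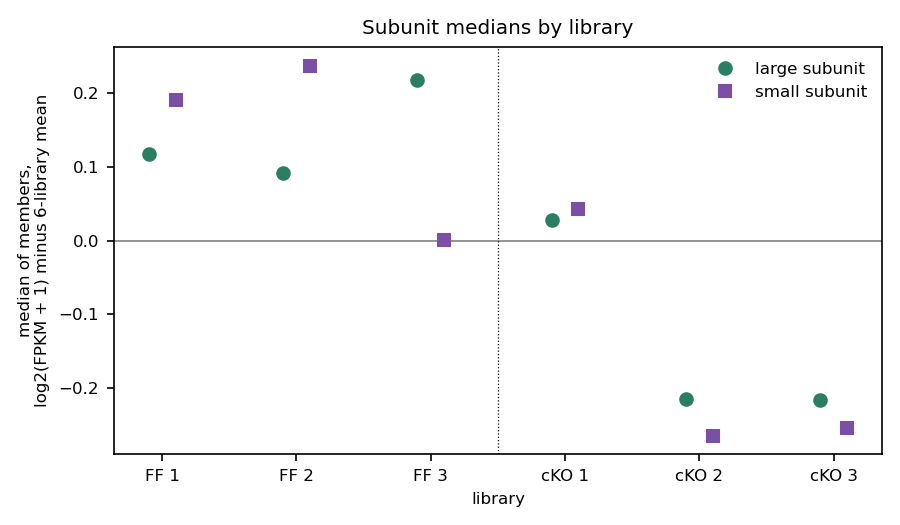
Points are the median over the tested large subunit genes (circles) and small subunit genes (squares) of log2(FPKM + 1) minus the mean of the 6 libraries, for each library on the horizontal axis. Both medians lie below 0 in cKO 2 and cKO 3 and just above 0 in cKO 1, and they stand furthest apart in FF 3, at 0.22 and 6.2e-04.

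Summed over all members of a subunit, the level was 6145, 5847 and 6606 FPKM for the large and 5007, 4760 and 4790 FPKM for the small subunit in FF replicates 1 to 3. In cKO the sums were 5718, 4785 and 4847 FPKM for the large and 4374, 3751 and 3627 FPKM for the small subunit. Their ratio was 1.23, 1.23 and 1.38 in FF and 1.31, 1.28 and 1.34 in cKO. The groups overlapped in this ratio, and without FF replicate 3 every cKO value lay above the FF values. Replicate 3 of FF exceeded both other FF libraries at 27 of 52 large but 9 of 33 small subunit genes, and lay below both at 21 and 21.

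Base composition was compared as well. Across genes, the deviation of FF replicate 3 from the other FF libraries rose with transcript GC content over 11133 protein-coding genes (Spearman's rho 0.674), and less so over the 85 members (rho 0.217). The members had a median GC content of 50.9%, 51.6% for large and 50.6% for small subunit genes. The difference between the groups had a rho of -0.31 with GC content over the members, and -0.10 without FF replicate 3. With all libraries it was -0.46 over the large and -0.05 over the small subunit genes. Over all protein-coding genes it was -0.26, and 0.20 without FF replicate 3. Points in these correlations share their libraries, so no test is given. The length of the gene and its level had rho of 0.159 and 0.0620 with the difference over the members.

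Large subunit genes with the largest differences were led by Rpl7a (ENSMUSG00000062647, chromosome 2, 26800776 to 26803330, plus strand, in the coordinates of the deposited table), which codes for a protein of the large subunit's surface and sits in the tightly packed surfeit gene cluster. Its level was 81.0, 68.4 and 103 FPKM in FF replicates 1, 2 and 3 and 43.1, 27.3 and 29.2 FPKM in cKO replicates 1, 2 and 3. All cKO libraries lay below all FF libraries, with means of 84.1 ± 17.5 and 33.2 ± 8.64 FPKM (SD, n = 3 each), 60.5% lower in cKO. The log2 difference was -1.32 (SE 0.23, adjusted p = 0.0674, limma), and -1.17 without FF replicate 3 (adjusted p = 0.0180). These values rest on 961 to 3512 reads per library. Rows named as Rpl7a pseudogenes held few reads, and with them the sum was 157 ± 33.3 RPM (reads scaled to the library total) in FF and 70.2 ± 17.9 in cKO.

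Rpl35, whose protein lies at the exit of the tunnel, measured 137, 114 and 242 FPKM in FF and 111, 113 and 84.5 FPKM in cKO. Its groups did not overlap, but the highest cKO and the lowest FF library were 113 and 114 FPKM. The log2 difference of -0.61 (SE 0.29, adjusted p = 0.338, limma) was -0.29 without FF replicate 3, in which the gene was highest. Rpl35 overlaps Arpc5l in the deposited table, and without a known strand setting reads of such pairs may be shared. Rpl34, another large subunit protein, was at 32.3, 32.9 and 30.7 FPKM in FF and 25.9, 21.6 and 18.5 in cKO, a difference of -0.53 (adjusted p = 0.147, limma). It had no overlap of groups and fell past the threshold without FF replicate 3 (-0.56, adjusted p = 0.0454, limma).

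The most abundant large subunit transcripts were those of Rplp0, Rplp1 and Rpl4, with differences of -0.12, -0.28 and -0.15, and of -0.03, -0.40 and -0.04 without FF replicate 3. Rplp0, the base of the stalk that recruits elongation factors, was at 528, 496 and 620 FPKM in FF and 507, 508 and 487 in cKO, a difference of -0.12 (95% interval -0.44 to 0.19). Rplp1, a stalk protein, had 415, 481 and 345 FPKM in FF and 431, 278 and 321 in cKO, and Rpl4, which lines the tunnel, 365, 347 and 447 FPKM in FF and 361, 342 and 337 in cKO. The groups overlapped at all 3 genes. The largest value above 0 was that of Rpl23, whose protein also binds Mdm2, with 136, 126 and 68.7 FPKM in FF and 138, 107 and 122 in cKO. Its difference of 0.20 (95% interval -0.46 to 0.85) was -0.11 without FF replicate 3, where it was lowest.

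The groups did not overlap, with cKO lower, at 18 of the 52 large subunit genes tested, against 14.5% of all genes. Among them were Rpl7a, Rpl3l, Rpl35, Rpl19, Rpl34, Rpl12, Rpl27, Rpl29, Rpl9, Rpl14, Rpl11, Rpl18, Rpl8, Rpl13, Rplp2, Rpl31 and Rpl30. Apart from Rpl7a, Rpl3l, Rpl35 and Rpl34, the differences of these genes ran from -0.57 at Rpl19 (-0.36 without FF replicate 3) to -0.24 at Rpl30. Rpl11, which like Rpl23 and Rpl5 can bind Mdm2, was at -0.36, and Rplp2, the partner of Rplp1 in the stalk, at -0.29. Rpl37a, Rpl7, Rpl22, Rpl10-ps3, Rpl9-ps6, Rpl7l1 and Rpl22l1 lay within 0.1 of 0. The median mean level of the large subunit genes was 91.7 FPKM, with 22 above 100 FPKM.

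Small subunit genes with the largest differences included Rps14, Rps15 and the paralogue Rps27l. Rps14, a protein of the platform that holds the mRNA, measured 177, 166 and 144 FPKM in FF and 127, 97.3 and 79.0 in cKO, with 162 ± 16.8 and 101 ± 24.2 FPKM as means (SD, n = 3 each). The groups did not overlap, and the log2 difference was -0.70 (SE 0.20, adjusted p = 0.152, limma) and -0.78 without FF replicate 3 (adjusted p = 0.0426). The gene row of Rps14 reaches into its neighbour Ndst1. Rps15, a protein near the site where codons are read, was at 522, 429 and 522 FPKM in FF and 373, 338 and 280 in cKO, again with no overlap. Its log2 difference was -0.57 (SE 0.16, adjusted p = 0.147, limma), 32.7% lower in cKO, and it did not pass without FF replicate 3 either (-0.53, adjusted p = 0.0730, limma).

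Rps23, a protein of the decoding site, had 197, 195 and 168 FPKM in FF and 159, 124 and 130 in cKO, and Rps19, the gene most often mutated in Diamond-Blackfan anaemia, had 22.0, 27.0 and 17.6 FPKM in FF and 18.9, 14.0 and 13.7 in cKO. The groups of Rps23 did not overlap, those of Rps19 did, and both genes fell past the threshold without FF replicate 3 (-0.51 and -0.63, adjusted p = 0.0480 and 0.0475, limma). Rps6, the S6 kinase substrate whose phosphorylation serves as a readout of mTOR signalling, had 268, 237 and 322 FPKM in FF and 231, 214 and 196 in cKO, a difference of -0.36 (adjusted p = 0.287, limma). At 12 of the 33 small subunit genes tested the groups did not overlap, with cKO lower, against 14.5% of all genes. Among them were Rps14, Rps15, Rps23, Rps6, Rps27l, Rps18-ps5, Rps9, Rps7, Rps2 and Rps13, and the last 4 named ran from -0.35 to -0.26. The median mean level of the small subunit genes was 110 FPKM, with 16 above 100 FPKM. Rps3a1, the most abundant small subunit transcript, had 623, 594 and 529 FPKM in FF and 590, 473 and 468 in cKO, and Rps2, at the mRNA entry, 369, 364 and 385 in FF and 334, 298 and 289 in cKO, where the groups did not overlap. X-linked Rps4x had a difference of -0.07 (95% interval -0.37 to 0.22), and -0.13 without FF replicate 3. Rps27a, made as a fusion with ubiquitin, ranged from 24.5 to 72.2 FPKM within FF and from 36.7 to 46.5 within cKO, and its difference of -0.05 was -0.46 without FF replicate 3.

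**Figure D3:**
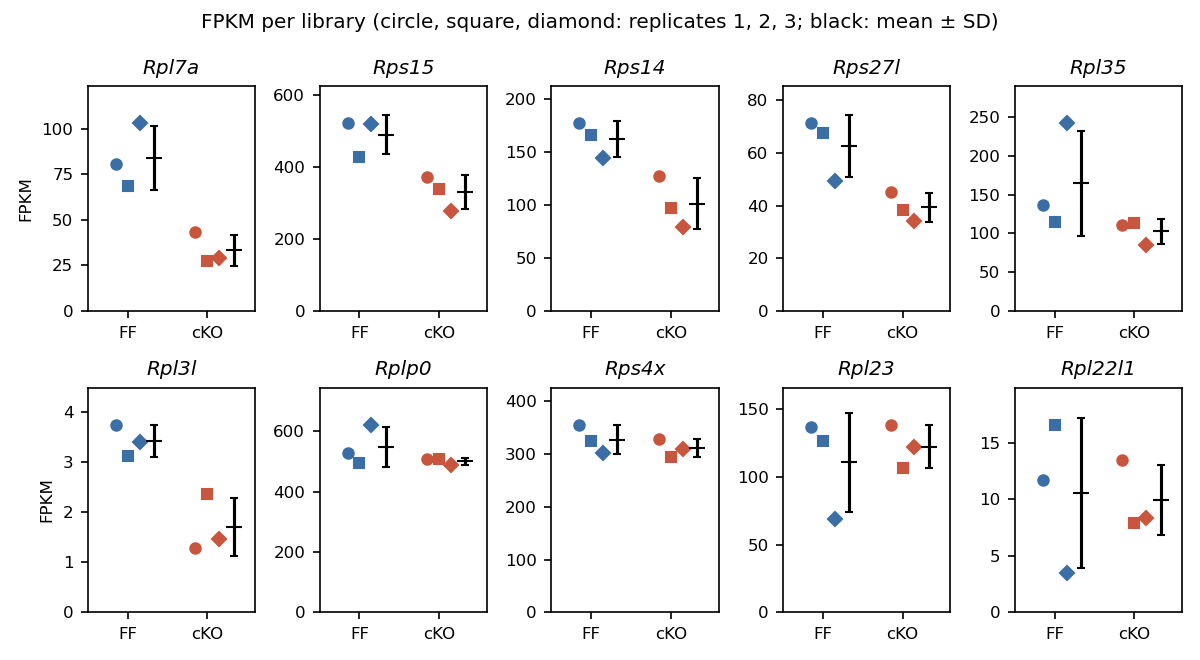
FPKM of 10 ribosomal protein genes in each FF (blue) and cKO (red) library, with circles, squares and diamonds for replicates 1, 2 and 3, and the mean ± SD in black, on axes that start at 0. The groups are apart at Rpl7a, Rps15, Rps14, Rps27l and Rpl3l, touch at Rpl35, and overlap at Rplp0, Rps4x, Rpl23 and Rpl22l1, where FF 3 is lowest at the last 2.

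Paralogues differed among themselves. Rpl3l (ENSMUSG00000002500, chromosome 17, 24946794 to 24955117, plus strand, in the deposited coordinates), the striated muscle variant of Rpl3, was at 3.74, 3.12 and 3.40 FPKM in FF and 1.29, 2.37 and 1.46 in cKO. All cKO libraries lay below the FF libraries, with means of 3.42 ± 0.312 and 1.71 ± 0.580 FPKM (SD, n = 3 each) from 42 to 107 reads per library. The log2 difference was -0.73 (SE 0.18, adjusted p = 0.120, limma), a scale that understates the change of so low a gene, and -0.73 without FF replicate 3 (adjusted p = 0.0473). Its common counterpart Rpl3 measured 184, 172 and 229 FPKM in FF and 176, 169 and 166 in cKO, a difference of -0.18, or -0.06 without FF replicate 3. Rpl3l amounted to 2.03%, 1.82% and 1.49% of the Rpl3 level in FF and to 0.735%, 1.41% and 0.879% in cKO. This ratio did not overlap between the groups. The exact two-sided permutation test gave 0.1 for it, which is the lowest p possible with 3 libraries a group.

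Rps27l, the paralogue of Rps27 that the tumour suppressor Trp53 can induce, measured 71.2, 67.6 and 49.2 FPKM in FF and 45.3, 38.5 and 34.2 in cKO, with no overlap. Its log2 difference of -0.65 (SE 0.19, adjusted p = 0.155, limma) was -0.81 without FF replicate 3, where it had the smallest adjusted p of the family (0.0157). Rpl22l1, which Rpl22 can repress, varied within both groups, at 11.7, 16.6 and 3.49 FPKM in FF and 13.5, 7.91 and 8.36 in cKO. As a share of Rpl22 it was 24.6%, 35.1% and 9.16% in FF and 27.1%, 18.5% and 17.9% in cKO, so the groups overlapped. Its log2 difference of 0.09 (SE 0.50) was -0.49 without FF replicate 3. Rpl7l1, whose protein acts in building the large subunit, was even across the libraries, at 15.3 to 16.2 FPKM in FF and 15.9 to 18.0 in cKO. Rpl36al had 2 to 10 reads and Rpl39l 0 to 5 reads per library, too few to compare.

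Many ribosomal protein genes have processed pseudogenes, intronless copies that can take their reads. The table held 321 pseudogene rows with an Rpl or Rps name, and 161 of them had reads. Together they took 820, 794 and 851 RPM in FF and 840, 647 and 598 in cKO, against 15203 to 19459 for the members. Reads in pseudogenes named after a member outnumbered its own at 3 members, Rps10, Rpl17 and Rpl21, and made up over 10% of the sum at 9. Rps10, an essential protein of the small subunit, was at only 0.438 to 0.837 FPKM, while Rps10-ps2 took 59.0, 61.9 and 82.9 RPM in FF and 56.3, 47.9 and 49.0 in cKO. Rpl24 and Rpl13a were low too, at 0.609 to 1.65 and 4.53 to 9.07 FPKM, but pseudogenes named after them held 0 reads. The cause of their low levels was not tested. The levels of such genes as these 3 need not be those of their mRNAs.

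For some genes and copies the split of reads varied between single libraries. Rpl17, a protein at the tunnel exit, took 80.2, 102 and 162 RPM in FF and 72.4, 52.1 and 120 in cKO, and its copy Rpl17-ps10 took 137, 103 and 98.4 in FF and 152, 106 and 23.1 in cKO. In cKO replicate 3 the gene was the highest and the copy the lowest of the cKO libraries. The sum over Rpl17 and its named copies was 280, 262 and 327 in FF and 287, 204 and 181 in cKO. Rps27 and its retrogene Rps27rt varied in the same manner. Rps27 took 21.4, 41.2 and 32.3 RPM in FF and 46.4, 10.5 and 34.9 in cKO, and Rps27rt 44.5, 28.5 and 18.7 in FF and 14.0, 37.8 and 11.8 in cKO. Their sum ran only from 51.0 to 69.7 in FF and from 46.7 to 60.4 in cKO. The differences of Rps27rt (-0.70, SE 0.51), Rpl17 (-0.58, SE 0.35, and -0.30 without FF replicate 3) and Rps27 (-0.30, SE 0.52) are therefore uncertain. Rps18-ps5 and Rpl36a-ps1, with 23 to 110 and 3 to 24 reads per library, had differences of -1.30 and -0.71, whereas the reads of Rps18 with its copies were 15.8% and those of Rpl36a with its copies 16.7% lower in cKO. Adding the reads of named pseudogenes to their genes left the medians at -0.29 for the large and -0.30 for the small subunit.

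**Figure D4:**
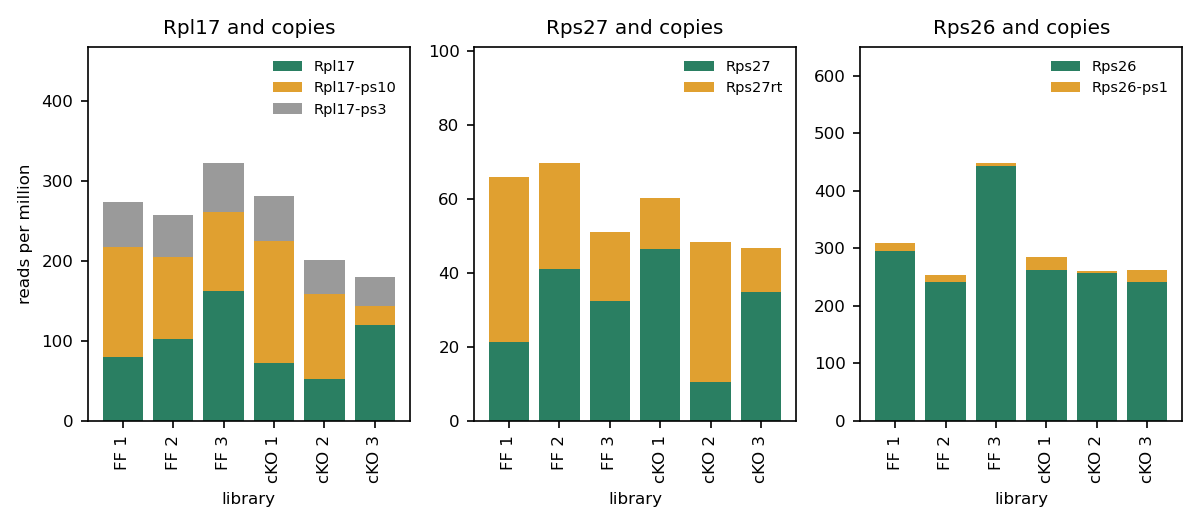
Stacked bars give the RPM in each library for Rpl17 with 2 of its pseudogenes, Rps27 with Rps27rt, and Rps26 with Rps26-ps1. The coloured parts shift between libraries, as in cKO 3 for Rpl17-ps10 (23.1) and in cKO 2 for Rps27 (10.5), more than the totals of Rps27 with Rps27rt do.

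Fau, a ribosomal protein gene that goes under another name and carries the small subunit protein eS30, was at 110, 117 and 113 FPKM in FF and 89.2, 73.6 and 64.7 in cKO, with no overlap (-0.58, SE 0.15, adjusted p = 0.126, limma). Without FF replicate 3 it fell past the threshold (-0.59, adjusted p = 0.0431, limma). The mitochondrial ribosomal proteins, which are built into another ribosome, had 57 of 77 tested genes below 0 and a median of -0.16, with 0 past the threshold, 17 lower and 1 higher at an unadjusted p under 0.05. Mrpl14 and Mrpl41 had the smallest p, at -0.97 (SE 0.24) and -0.59 (SE 0.15). Without FF replicate 3 the median was -0.18, with 7 genes lower and 1 higher past the threshold.

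The other lists of protein synthesis genes had medians nearer 0 than the ribosomal proteins with all libraries, where 0 of their genes passed in limma except for 1 regulator, and some moved further from 0 without FF replicate 3. Initiation factors had 20 of 39 genes below 0 and a median of -0.04, with Eif2b2 at -0.38 and Eif4b, an mTOR-regulated helper of the helicase, at 0.40. When FF replicate 3 was left out, 28 of 39 were below 0, the median was -0.07, and 1 was lower and 1 higher past the threshold. The list of elongation factors also held genes that are not elongation factors themselves, such as Eef1e1, Eef2k, Gspt1, Etf1 and Abce1. It had 8 of 13 genes below 0 and a median of -0.07, with Eef1e1 at -0.51 and Eef1g at -0.29. Its median was -0.18 without FF replicate 3, with 9 of 13 below 0. Then 1 gene, Eef1e1, was lower and 2, Eef1a2 and Eef2k, were higher past the threshold. The 20 genes with a TOP tract that code for other proteins or are named otherwise, Fau included, had 11 below 0 and a median of -0.08, with Naca, of the complex that meets new chains at the ribosome, at 0.39. The median was -0.03 without FF replicate 3, with 1 lower and 2 higher past the threshold. The snoRNA host genes that code for no protein had 6 of 11 below 0 (median -0.07), with Zfas1 at 0.52 and Snhg12 at 0.64. With that library left out, 9 of 11 were below 0 (median -0.13), 1 was lower past the threshold, and Zfas1 and Snhg12 stood at 0.33 and 0.37.

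The lists of assembly factors and of RNA polymerase I had medians near 0 with all libraries and further below 0 without FF replicate 3. The median of the regulators was above 0 in both. Assembly factors had 42 of 82 below 0 and a median of -0.02, with 8 lower and 4 higher at an unadjusted p under 0.05. With FF replicate 3 left out, 50 of 82 were below 0, the median was -0.09, and 8 were lower and 2 higher past the threshold. Nhp2, of the complex that makes pseudouridine in ribosomal RNA, averaged 18.9 ± 1.85 FPKM in FF hearts and 11.7 ± 1.42 in cKO hearts, with 11.4 ± 0.716 and 8.05 ± 0.609 for Nop16 (SD, n = 3 each). The RNA polymerase I list had 10 of 19 below 0 and a median of 0.00 (-0.0023), with Ttf1, which ends its transcripts, at 0.49 and Taf1b at 0.40. Its median was -0.16 without FF replicate 3, with 2 lower and 1 higher past the threshold. Regulators of ribosome synthesis (MYC, mTOR and related genes) had 25 of 35 above 0 and a median of 0.10. Without FF replicate 3 the median was 0.17, and 7 of 36 were higher past the threshold, against 6.47% of all genes. The list mixed activators with genes that restrain the process, such as Tsc1, Tsc2 and Maf1, so its median gives no direction for ribosome synthesis. Flcn, the folliculin gene that acts on the Rag GTPases upstream of mTOR, rose from 8.16 ± 1.06 to 26.9 ± 1.97 FPKM (SD, n = 3 each; adjusted p = 0.0247, limma).

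**Figure D5:**
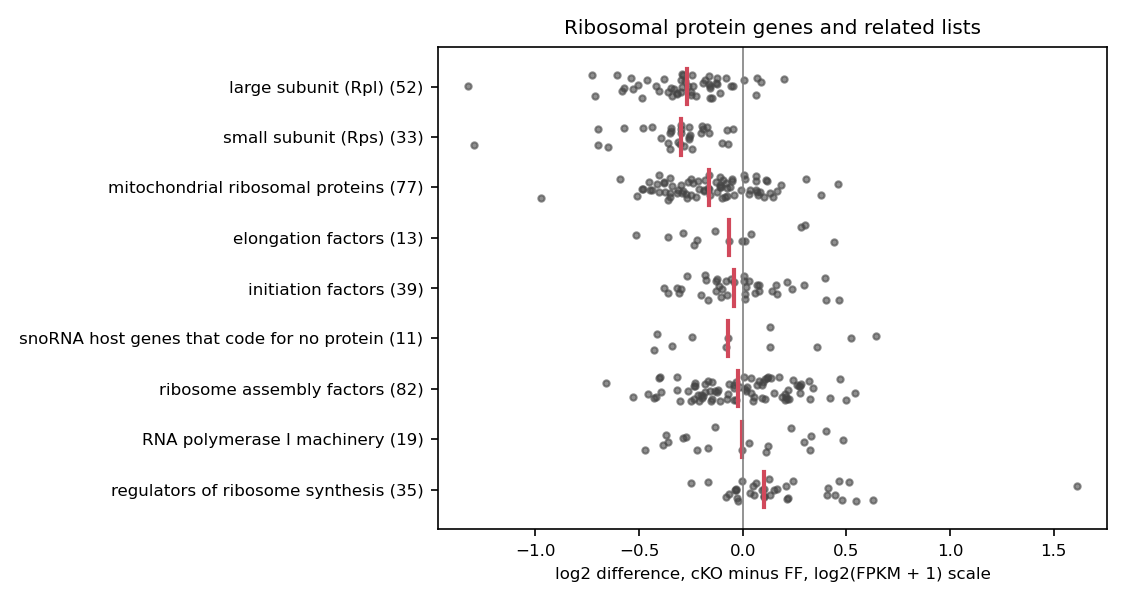
Each point is a tested gene, placed by its log2 difference of cKO minus FF, in rows for the large and small subunit genes and for 7 related lists, with the number of genes in brackets and the median as a red line. The subunit medians lie at -0.27 and -0.30, that of the mitochondrial ribosomal proteins at -0.16, and the other medians between -0.07 and 0.10, all with 6 libraries.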

How the data were processed

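Per the labels' protocols, the miRNeasy micro kit gave total RNA and the Ovation Ultralow V2 kit the libraries. The authors deposited FPKM values for 56748 genes, per the file headers. Tools in the submitters' processing notes are edgeR, featureCounts, Subread, TopHat2 2.0.13 and FastQC. These notes list mm10, GRCm39 and GRCh38 as builds. Strand setting, annotation release and the handling of reads that map to several places were not given in the sources used here. Of 92 members shared with GENCODE M21 (GRCm38), 1 had the same start and end, so the deposited coordinates are printed as given. Gene length, which the authors deposited beside the values, times FPKM was a whole multiple of a step per library (100% of values under 200 reads within 0.1), which gave reads.

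The test was limma 3.58.1 (R 4.3.3) on log2(FPKM + 1) with the term group, a variance trend and Benjamini-Hochberg adjustment, over genes with a mean of at least 1 FPKM in the libraries fitted. Named genes were every paralogue with reads, per subunit the 5 lowest and 2 highest differences and the 3 highest levels, members past the threshold, and 2 or 3 genes per list by p, as well as Kdm5b. Rpl34, Rps19, Rps23, Rps6, Rpl3, Rpl22, Rps18, Rpl36a, Rps26, Rps27, Rps10, Rpl24, Rpl13a, Rpl21 and the members listed only for their groups not overlapping or lying near 0 were chosen once values had been seen. The members and lists were chosen with earlier results of these data known. GC content came from the longest protein-coding GENCODE M21 transcript. The steps were tested on simulated data. Alternatives are in the closing section. Values of a few members are not reported here.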

Additional observations from a re-analysis of the deposited data

How the results depend on the processing

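The medians of both subunits stayed below 0 in all 22 alternatives, 19 planned and 3 chosen after seeing the data. That of the large subunit moved by more than its spread between replicates only with quantile normalization, to -0.16, where 70 of 85 members were below 0. Leaving out a library in turn gave -0.36 to -0.22 for the large subunit, -0.42 to -0.24 for the small subunit and -0.0191 to 0.105 for large minus small. No member was called higher in any setting. The count called lower was 0 except in the settings that follow. With array weights it was 41 of 85 (10 named members). There 2157 of the 12678 genes tested were lower, among 4300 called in all. Leaving out a library in turn gave 0 to 8 (0 to 5 named members), among 0 to 1716 genes called in all. The 8 came without FF replicate 3, where 899 of the 1716 genes called were lower. Without that library the count was 2 of 85 (2 named) with the genes kept as with 6 libraries, and 3 of 84 (3 named) with quantile normalization. It was 34 of 83 (6 named) without cKO replicate 1 as well. In these 3 settings 794 of 1520, 802 of 1736 and 1195 of 2049 genes called were lower. The first 2 settings tested 12678 and 12631 genes, and the number tested in the last is not reported here. The 21 genes called in all became 11 with a pseudocount of 0.1, 0 with no filter, 53 with a minimum mean of 5 FPKM, 59 with quantile normalization, 58 with rescaling outside mitochondrial and haemoglobin genes, 65 among protein-coding genes alone, 13 with a robust prior and 2 with the replicate block. The split of calls was 9 higher and 12 lower, against 38 and 20 with that rescaling, 31 and 28 with quantile normalization and 9 and 6 with median-ratio scaling. Rpl22l1, at 0.09, ran from -0.49 to 0.50 when a library was left out in turn, and reversed to -0.71 with array weights (adjusted p = 0.0300, limma) and to -0.71 without FF replicate 3 and cKO replicate 1 (adjusted p = 0.0411, limma). The cause of these shifts was not tested. The labels give same-numbered samples no more in common than the number, and do not say whether they were paired. Their deviations from the group means correlated at 0.384, -0.24 and 0.239, against -0.424 to 0.349 for samples of unlike number. The replicate block left 0 members called. Depth limits the lowest genes: Rpl36al, Rpl39l and Rpl24 had at most 29 reads per library.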
